A study of Mus musculus with 3 samples.

Results

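The 6 genes described here, all of the mouse X chromosome and best known from the testis, the placenta and tumours, were followed in whole embryos whose mothers lacked Dnmt3l. They are the reproductive homeobox genes Rhox5, Rhox6 and Rhox9 and the cancer-testis genes Trap1a, Fmr1nb and Mageb16. Each is named alone by 1 probe set (a group of short probes against 1 transcript), so the set is 6 genes of the 18193 that the array annotation names in this way. They were selected on these same signals, because all 6 were high in the mutants, so the contrast of mutant with normal embryos is given for them as a description and is not tested. Affymetrix arrays measured RNA from 3 pools of litter mates of mixed sex, collected at 8.5 days post coitum (dpc). The normal group was 1 pool of 6 C57Bl/6J embryos. The mutant group was 2 pools, of 8 and 6 embryos, with the genotype Dnmt3l-/+ on a C57Bl/6J background. The mutant embryos had a Dnmt3l-/- dam and a wildtype sire. The label gives the tissue as whole embryo and does not say which extraembryonic membranes were kept. Nothing in the labels says whether the mutant pools came from separate dams, so the spread between them may be smaller than that between litters, and the normal group has no replicate.

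Dnmt3l is a cofactor of the enzymes that place new DNA methylation, and in the growing oocyte it is needed for the methylation marks that the egg passes to the embryo. The Rhox genes form a cluster of homeobox transcription factor genes on the X chromosome, with expression in testis, ovary and placenta. Cancer-testis genes are expressed in germ cells, and often in the placenta, are silent in most somatic tissues and are switched on in many tumours. Methylation of CpG dinucleotides in their promoters is a well described part of that silencing.

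Promoter windows are shown because CpG sites are the positions that DNA methylation can occupy. RefSeq promoters (build GRCm38.p6) were matched by symbol for 4 of the 6 genes. Each window below is the 250 bases before the annotated start, 5′ to 3′ along the gene's strand, with every CpG in capitals. The Rhox5 window lies at chrX:37754358-37754607 on the plus strand, that of Trap1a at chrX:139333433-139333682 on the plus strand, that of Fmr1nb at chrX:68761589-68761838 on the plus strand and that of Mageb16 at chrX:79671436-79671685 on the minus strand.
Rhox5: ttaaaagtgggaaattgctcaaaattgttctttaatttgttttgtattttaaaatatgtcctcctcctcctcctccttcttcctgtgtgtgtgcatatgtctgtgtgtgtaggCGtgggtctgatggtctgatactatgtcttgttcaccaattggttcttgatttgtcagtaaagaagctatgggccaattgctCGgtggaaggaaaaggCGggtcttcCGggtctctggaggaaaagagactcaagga
Trap1a: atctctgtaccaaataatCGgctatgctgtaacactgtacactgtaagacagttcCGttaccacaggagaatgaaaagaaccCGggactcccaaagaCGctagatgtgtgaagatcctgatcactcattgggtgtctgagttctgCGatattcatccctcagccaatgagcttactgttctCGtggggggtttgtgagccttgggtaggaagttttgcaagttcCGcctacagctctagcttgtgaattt
Fmr1nb: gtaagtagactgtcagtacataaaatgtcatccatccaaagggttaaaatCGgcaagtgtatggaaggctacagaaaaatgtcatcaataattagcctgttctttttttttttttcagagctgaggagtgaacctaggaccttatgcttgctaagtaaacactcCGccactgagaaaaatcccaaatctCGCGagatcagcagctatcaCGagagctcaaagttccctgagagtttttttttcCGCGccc
Mageb16: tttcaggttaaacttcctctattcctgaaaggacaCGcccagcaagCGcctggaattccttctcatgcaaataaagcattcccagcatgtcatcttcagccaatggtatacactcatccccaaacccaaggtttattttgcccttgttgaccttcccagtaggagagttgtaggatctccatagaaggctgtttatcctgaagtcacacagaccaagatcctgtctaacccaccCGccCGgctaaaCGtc

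These windows held few to moderate numbers of CpG sites. Rhox5 had 4 CpG, Mageb16 had 5, and Trap1a and Fmr1nb had 7 each. The median of all 32851 windows of the same length was 6, and that of the 1223 windows on the X chromosome was 5. The ratio of observed to expected CpG was 0.36 for Rhox5, 0.38 for Mageb16, 0.51 for Trap1a and 0.65 for Fmr1nb, against a median of 0.37 over all windows. So the 4 windows lay on both sides of the middle of all promoters in CpG count, and Fmr1nb stood highest in CpG for its base composition. Rhox5 can be transcribed from more than 1 promoter, and which start gave its signal was not measured. Methylation itself was not measured in these pools.

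Short motifs were searched on both strands, and the list was drawn up after the windows had been seen. CCAAT, the box that nuclear factor Y binds, was in the windows of Rhox5, Trap1a and Mageb16 and in 33.8% of all windows. CCGGAA, a core of ETS factor sites, was in the Rhox5 window, where it begins 33 bases before the start, and in 12.0% of all windows. TCTCGCG, part of a palindrome bound by the methyl-CpG binding protein Zbtb33, was in the Fmr1nb window and in 2.1% of all windows. TTCCCGC, a core of E2F sites (3.82% of all windows), and CACGTG, an E-box (6.02%), were in none of the 4. The ETS, Zbtb33, E2F and E-box motifs each hold CpG, so these counts overlap with the CpG counts. No motif of the search was in all 4 windows other than CpG itself.

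All 3 Rhox genes had higher signals in both mutant pools than in the normal pool. Signal is an array intensity in arbitrary units, on arrays that had each been scaled to a trimmed mean of 500. Log2 ratios are differences of log2(signal + 31.92) between a mutant array and the normal one, a scale on which changes of dim genes come out too small. Rhox5, also called Pem, is the founding gene of the cluster and is expressed in Sertoli cells and in extraembryonic tissues. Its signal was 1250.0 in the normal pool, 8619.9 in mutant pool 1 and 8343.0 in mutant pool 2. The mutant mean was 8481.5 ± 196 (SD, n = 2), 6.79 times the normal signal, with a log2 ratio of 2.73. The pair of mutant pools lay close together and far above the normal pool.

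Rhox6 and Rhox9 are the former Psx1 and Psx2, homeobox genes first found in the placenta. Rhox6 read 111 in the normal pool, 1415.2 in mutant pool 1 and 1055.9 in mutant pool 2. Its mutant mean of 1235.5 ± 254 (SD, n = 2) was 11.1 times the normal signal, and its log2 ratio was 3.13. It had the widest gap between the mutant pools of the 6 genes, 0.41 on the log2 scale. Rhox9 read 121 in the normal pool and 869 and 767 in mutant pools 1 and 2. Its mutant mean of 818 ± 72.0 (SD, n = 2) was 6.76 times the normal signal, and its log2 ratio was 2.47. Rhox6 and Rhox9 are close relatives, probe sequences were not used here, and whether their probe sets can tell their transcripts apart was not tested. In whole embryos, more cells of an expressing type and more RNA per cell cannot be told apart.

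The 3 cancer-testis genes were higher in both mutant pools as well. Trap1a codes for a tumour rejection antigen whose normal expression is known from male germ cells and trophoblast. Its signal was 362 in the normal pool, 3124.1 in mutant pool 1 and 3415.5 in mutant pool 2. The mutant mean of 3269.8 ± 206 (SD, n = 2) was 9.05 times the normal signal, with a log2 ratio of 3.07. Trap1a was the only one of the 6 that was higher in mutant pool 2 than in mutant pool 1.

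Fmr1nb, a gene next to the fragile X gene Fmr1 that codes for a cancer-testis antigen, read 224 in the normal pool and 1742.7 and 1609.0 in mutant pools 1 and 2. Its mutant mean of 1675.8 ± 94.5 (SD, n = 2) was 7.47 times the normal signal, and its log2 ratio was 2.74. Mageb16, of the melanoma antigen (MAGE) family, was the dimmest of the 6 relative to its array. It read 97.3 in the normal pool and 716 and 611 in mutant pools 1 and 2, a mutant mean of 663 ± 73.8 (SD, n = 2), 6.82 times the normal signal, with a log2 ratio of 2.42. The plot of signals by array shows that the normal pool lay below both mutant pools for every one of the 6 genes.

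**Figure D1:**
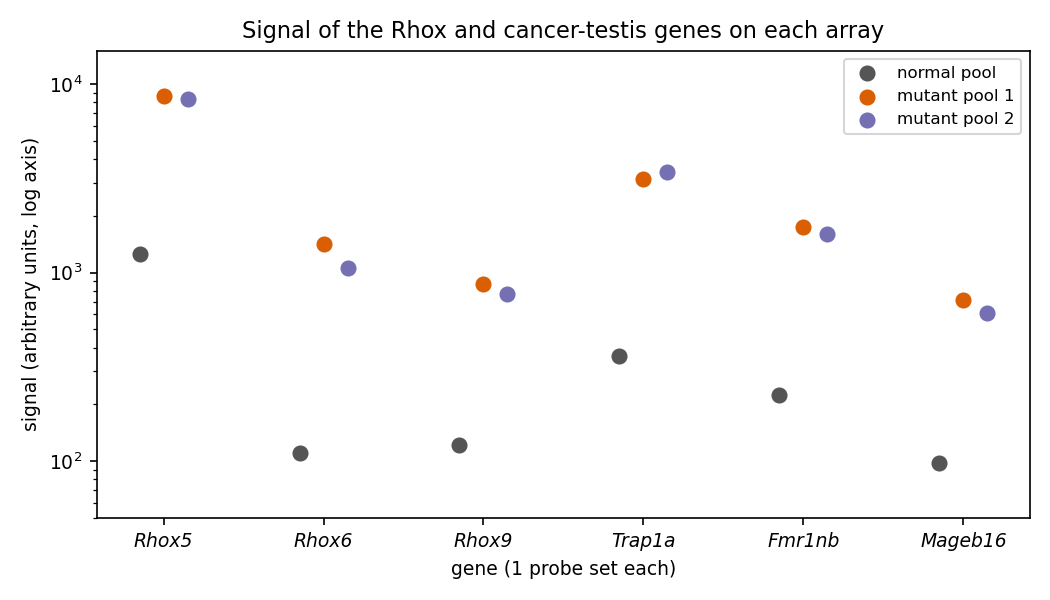
Signal of the 6 genes on each array (log axis, arbitrary units), with 1 point per pool: normal, mutant 1 and mutant 2. The gap from the normal point to the mutant points is several times the gap between the mutant points for every gene, with Rhox6 (111, 1415.2 and 1055.9) showing the widest spread between mutants.

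The 6 genes moved by similar factors. Over both mutant pools the signal was 6.28 to 12.7 times the normal signal, and the log2 ratios of the mutant mean ran from 2.42 (Mageb16) to 3.13 (Rhox6) with a median of 2.73. The median was 2.77 in mutant pool 1 and 2.69 in mutant pool 2. All 6 were at least 2-fold higher in both mutant pools, as were 2.57% of the 27022 probe sets kept by a filter on dim signals. In all 6 the normal array lay below both mutant arrays, as it did for 32.2% of the kept probe sets. These counts follow from how the genes were chosen.

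All 6 passed the filter, and 6 of 6 also lay above its threshold (a signal of 90.4) on the normal array alone. Their signals there stood between the 40.6th percentile (Mageb16) and the 87.4th (Rhox5) of all probe sets. In mutant pool 1 they stood between the 79.9th and the 98.6th, and in mutant pool 2 between the 77.6th and the 98.6th. Transcripts of Rhox5 were therefore already among the brighter signals of the normal pool. Rhox6, Rhox9 and Mageb16 read 111, 121 and 97.3 there, below that array's median of 143.61 and not far above the threshold. Their ratios thus rest on a rather dim signal from 1 normal array.

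The mutant pools differed little from each other for these genes. The gap between the log2 ratios of the pools ranged from 0.05 (Rhox5) to 0.41 (Rhox6) with a median of 0.15. Over all kept probe sets the median gap was 0.24, and the 90th percentile was 0.72. Those probe sets were not matched to the 6 genes for brightness. A choice of genes high in the mutants also favours agreement between the pools, so the smaller gap is a description only. Mutant pool 1 was the higher one for 5 of the 6 genes.

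Few probe sets were as high, and the high ranks of the 6 follow from how they were chosen. Ranked by the smaller of the mutant log2 ratios, Trap1a was 31st, Rhox6 37th, Rhox5 57th, Fmr1nb 60th, Rhox9 93rd and Mageb16 103rd of the 27022, so 0.381% of kept probe sets reached the value of Mageb16. Among other genes on the X chromosome, 3 of 425 (0.706%) reached it, and among autosomal genes 57 of 12408 (0.459%). The 3 on the X chromosome were S100g, a calcium-binding protein gene, the uncharacterised 4933402E13Rik and the tight junction gene Cldn2. The plot of both mutant ratios places the 6 genes in the sparse upper right corner, near the diagonal.

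**Figure D2:**
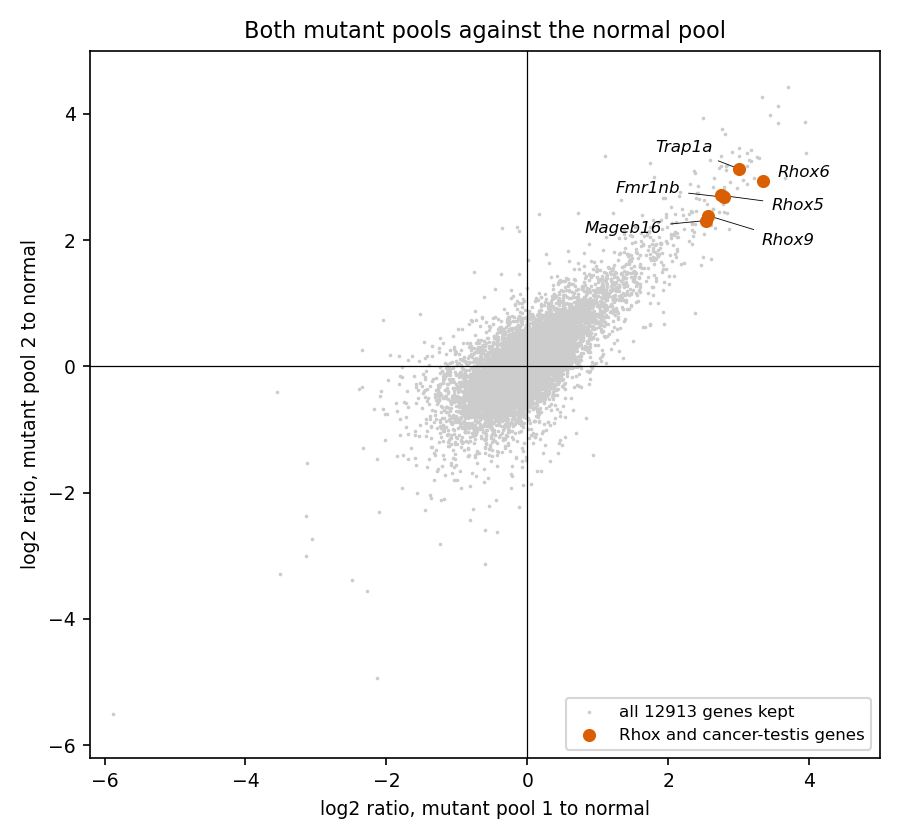
Log2 ratio of mutant pool 1 (horizontal axis) and mutant pool 2 (vertical axis) to the normal pool for 12913 genes, each by its brightest kept probe set (grey), with the Rhox and cancer-testis genes in orange. Both axes share the normal array. The 6 genes lie between 2.31 and 3.34 on both axes.

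The genes with the most similar pair of ratios were found by Euclidean distance over the log2 ratios of the 2 mutant pools, which share 1 normal array. For Rhox5 they were Pla2g12b (distance 0.09), Ctsh (0.09) and 2610528J11Rik (0.096). Those of Fmr1nb were Ppargc1b (0.065), Pla2g12b (0.076) and Ctsh (0.094). Rhox6 was nearest to Lgmn (0.14), Apom (0.22) and Apoc2 (0.28), and Trap1a to Npl (0.13), Apoc2 (0.18) and Slc7a9 (0.18). Rhox9 was nearest to Plbd1 (0.076), Slc7a8 (0.076) and Kcnn4 (0.13), and Mageb16 to Slc7a8 (0.045), Plbd1 (0.058) and Folr1 (0.1). With 3 arrays these distances describe likeness of size only.

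The rest of the Rhox family could hardly be followed. The gene table lists 42 Rhox genes and pseudogenes, and 4 of them are named alone by a probe set: the 3 above and Rhox13. Rhox13, a testis homeobox gene, was dim, with 7.95 in the normal pool, 61.2 in mutant pool 1 and 3.54 in mutant pool 2. The mutant pools lay on either side of the normal pool, and the filter removed the probe set. The other 38 were not analysed here.

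Other MAGE genes had lower log2 ratios than Mageb16, which was itself chosen for being high. Of the type I MAGE genes, the cancer-testis branch to which Mageb16 belongs, 5 others were measured and 4 of them were removed as dim. The pseudogene Magea7-ps, the one kept, read 159 in the normal pool and 126 and 115 in the mutants (log2 ratio -0.32, SE 0.33, limma adjusted p = 0.721). Magea4, Magea5 and Magea6 read at most 53.2 on every array, and Mageb3 read 58.3, 43.7 and 83.3. The 7 type II MAGE genes measured were all kept. None passed with limma (adjusted p under 0.05, reached by 0.728% of kept genes on the higher side and 0.031% on the lower), and none had an unadjusted p under 0.05. Their median log2 ratio was -0.05, against -0.02 for all kept genes, and it turned to 0.03 with median centring of the arrays. The neuronal growth suppressor gene Ndn read 6289.8 in the normal pool and 7371.1 and 6791.4 in the mutants, Mageh1 725, 947 and 1071.7, and Maged2 1034.3, 784 and 860.

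X-linked cancer-testis genes outside the 6 were mostly too dim to compare. Of 22 measured, 6 were kept, and none passed with limma or had an unadjusted p under 0.05. Their median log2 ratio was -0.26, and it was 0.04 without mutant replicate 2. Fthl17a, a ferritin-like gene of germ cells, was the one gene higher in both mutants, with 93.7 in the normal pool and 224 and 169 in the mutants (log2 ratio 0.85, SE 0.34, limma adjusted p = 0.371). Dmrtc1a (-0.55), Tex13a (-0.40) and Akap4, a sperm tail scaffold gene (-0.35), were lower in both mutants and did not pass. The log2 ratios of the 6 Rhox and cancer-testis genes, from 2.42 up, all lay above that of Fthl17a. The 6 were chosen for being high and were left out of this list, so that order follows from the choice.

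Autosomal germline genes, many of which are silenced by promoter methylation in the embryo, were measured as a comparison outside the X chromosome. Of 52 measured, 20 were kept, and 13 were below 31.92 on every array. Of the 20, 10 were higher in both mutants, 3 were lower in both and 7 differed in sign, against 36.5% higher and 39.1% lower over all kept genes. None passed with limma, and an unadjusted p under 0.05 was reached by 3 on the higher side and 0 on the lower, against 8.01% and 4.24% of kept genes. The median log2 ratio was 0.29 (0.36 in mutant pool 1 and 0.32 in mutant pool 2), and -0.31 with a stricter filter that left 3 genes.

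Tex19.1, a gene of germ cells and placenta that guards against retrotransposons, was the one germline gene of a size like that of the 6. It read 110 in the normal pool, 869 in mutant pool 1 and 615 in mutant pool 2. The mutant mean was 742 ± 180 (SD, n = 2) and the log2 ratio 2.43 (SE 0.32, limma adjusted p = 0.058). With median centring its adjusted p was 0.0355, and over the 9 alternatives with a test it ran from 0.0355 to 0.209. The next were Tdrd5 (1.07, with 60.4, 160 and 164), the meiotic cohesin gene Stag3 (0.87) and Rpl39l (0.87), which did not pass. Tex19.1 and Tdrd5 were at least 2-fold higher in both mutants, 2 of 20, against 3.24% of kept genes. Dppa3, a marker of primordial germ cells, read 109, 109 and 95.6.

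Of 26 listed genes that help to keep germline promoters silent, 25 were measured. The list of 25 measured holds DNA methyltransferases, histone methyltransferases, components of Polycomb complexes and methyl-CpG binding proteins, and all 25 were kept. None passed with limma, and an unadjusted p under 0.05 was reached by 1 on the higher side and 3 on the lower (8.01% and 4.24% of kept genes). The median log2 ratio was -0.20, with 16 lower in both mutants and 4 higher in both, against 39.1% and 36.5% of kept genes. Cdca7, which takes part in maintaining DNA methylation, read 5122.9 in the normal pool and 3079.3 and 2561.2 in the mutants (-0.86, SE 0.20, limma adjusted p = 0.185). Mga (-0.91) and its partner Max (-0.68), parts of a complex that represses germline genes, were lower in both mutants, and Mbd2 (0.66) was higher in both; none of these passed.

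**Figure D3:**
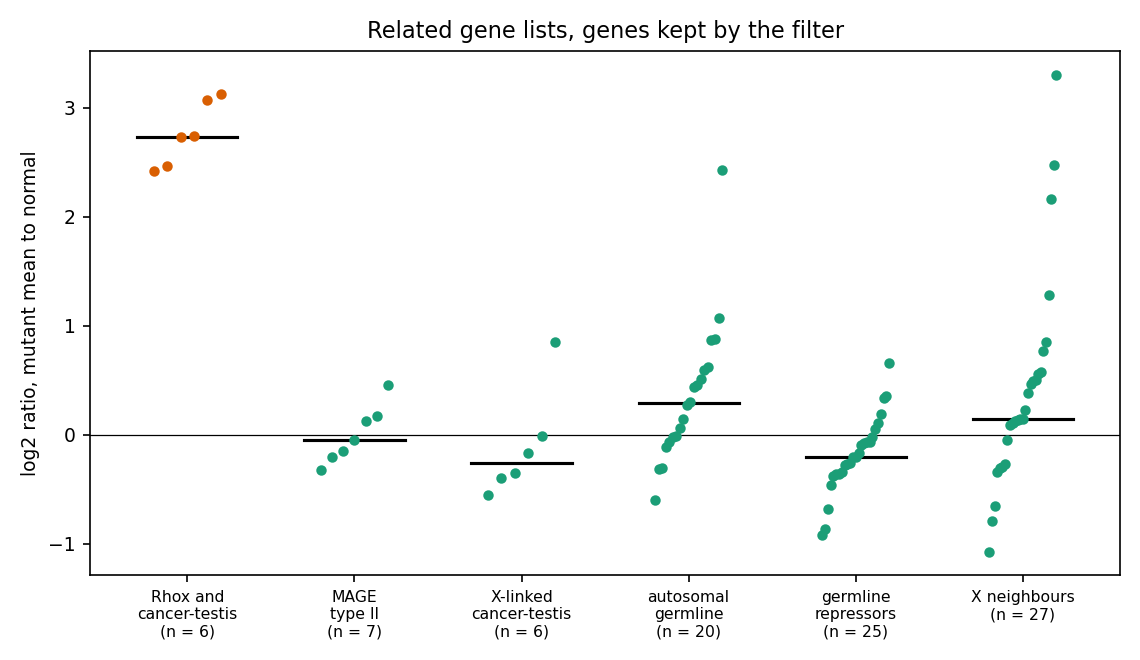
Log2 ratio of the mutant mean to the normal pool for each gene kept by the filter (points, sorted within a list) with the list median (bar), for the 6 Rhox and cancer-testis genes (orange) and 5 related lists (green). The 6 genes, chosen for being high, lie between 2.42 and 3.13, and the point nearest to them among germline genes is Tex19.1 at 2.43.

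Since all 6 genes lie on the X chromosome, their neighbours there were compared, 5 measured genes on each side. Genes beside the Rhox cluster lay near 0, with log2 ratios from -0.34 to 0.23 over the 8 kept, and none passed with limma or had an unadjusted p under 0.05. Zbtb33, the nearest measured gene on the far side of the cluster, read 1488.8 in the normal pool and 1043.8 and 1308.6 in the mutants, and Cul4b, a ubiquitin ligase scaffold gene, 4001.9, 4358.0 and 4295.8. Beside Fmr1nb the 7 kept neighbours ran from -0.79 to 0.57. Fmr1 itself read 1632.4 in the normal pool and 1906.0 and 2679.0 in the mutants (0.46, SE 0.26, limma adjusted p = 0.519). Beside Mageb16 the 5 kept ran from -1.07 (Tmem47) to 0.85 (Fthl17a). None beside Fmr1nb or Mageb16 passed with limma. An unadjusted p under 0.05 was reached by 0 beside Fmr1nb and by 2 beside Mageb16, Tab3 (0.77, higher) and Tmem47 (lower). Over all kept genes it was reached by 8.01% on the higher side and 4.24% on the lower.

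Trap1a was the exception. Of its 7 kept neighbours, Cldn2 and Morc4 rose (0.728% of kept genes did). Cldn2 read 226 in the normal pool and 2298.3 and 2758.9 in the mutants (log2 ratio 3.30, SE 0.24, limma adjusted p = 0.0165), and is also a marker on the yolk sac list. Morc4, of a family of chromatin ATPases, read 649 in the normal pool and 2624.8 and 3473.1 in the mutants (2.16, SE 0.25, limma adjusted p = 0.0429, and 0.055 with quantile normalization). Over the 9 alternatives the adjusted p ran from 0.00815 to 0.114 for Cldn2 and from 0.0207 to 0.176 for Morc4. The kinase gene Nrk (547, 1893.3 and 5347.1) and the ubiquitin ligase gene Rnf128 (960, 2128.2 and 2665.0) were at least 2-fold higher in both mutants and did not pass. With Cldn2 and Morc4, 4 of the 7 had an unadjusted p under 0.05 on the higher side and 0 on the lower. Over all kept genes these shares were 8.01% and 4.24%. Not all neighbours were higher. On the side away from Rnf128, the nearest measured gene, Pwwp3b, read 1149.0, 1448.6 and 1118.8, and Rbm41, the farthest of the 5 measured on the side of Rnf128, read 526, 519 and 496.

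**Figure D4:**
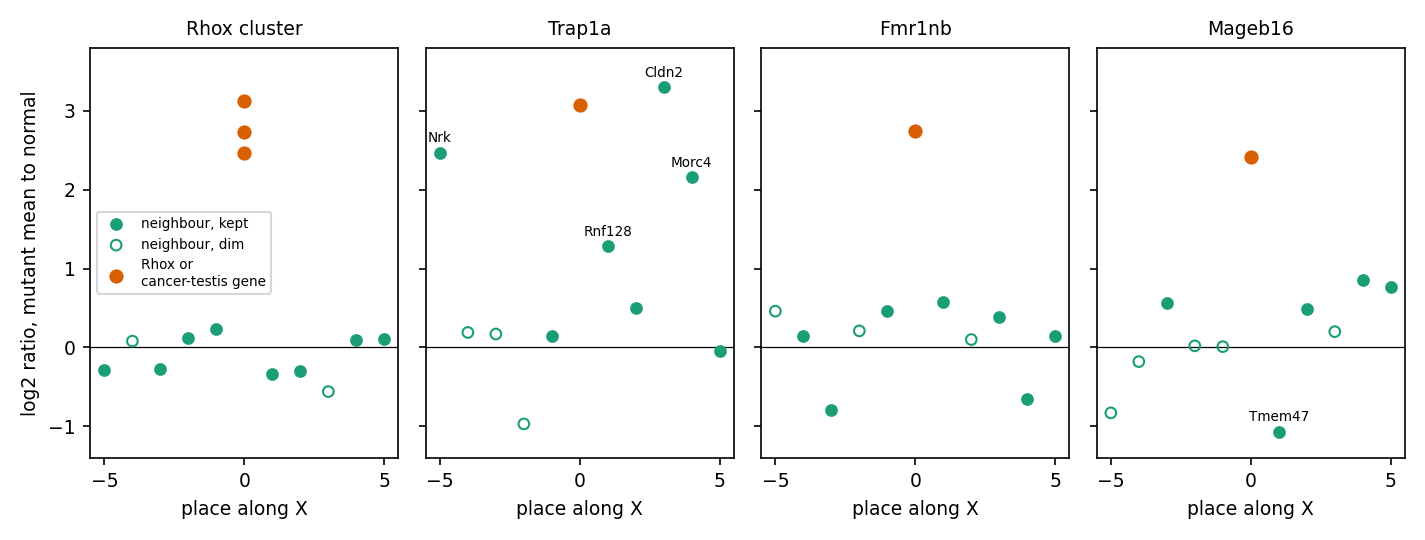
Log2 ratio of the mutant mean to the normal pool for the 5 nearest measured genes on each side of each locus (green; open circles were removed as dim), by their order along the X chromosome and not to genomic scale, with the Rhox and cancer-testis genes at place 0 (orange). Neighbours above 1 appear only beside Trap1a: Nrk, Rnf128, Cldn2 and Morc4.

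The X chromosome as a whole lay near the rest of the genome. Its 425 kept genes outside the 6 had a median log2 ratio of 0.00 (-0.02 in mutant pool 1 and 0.05 in mutant pool 2), and that of 12408 autosomal genes was -0.02. Of the X-linked genes 19 (4.47%) were at least 2-fold higher in both mutants, against 3.16% of autosomal genes, and 5 (1.18%) rose with limma, S100g, 4933402E13Rik, Cldn2, Esx1 and Morc4, against 0.669% of autosomal genes. The difference between X-linked and autosomal shares was not tested. Xist, the noncoding RNA that silences an X chromosome in female cells, read 1295.5 in the normal pool and 2736.3 and 3213.3 in the mutants (1.17, SE 0.21, limma adjusted p = 0.109). Of the Y-linked genes, Eif2s3y read 752, 351 and 544, Kdm5d 369, 246 and 378, and Uty 390, 266 and 436. The share of female embryos in each pool was not given by the labels, and its part in the values of the 6 X-linked genes was not tested.

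Genes of the yolk sac were mostly higher in the mutants too. Of 18 markers of yolk sac and visceral endoderm 17 were measured, all 17 were higher in both mutants, and 14 rose with limma (0.728% of kept genes did). No call on the array held without the filter on dim signals or without the trend of variance on signal. Their median log2 ratio was 2.58, and their summed signal was 23271.7 in the normal pool and 114111.1 and 122994.6 in the mutants. The lipid carrier gene Apob (3.85), Apoa4 (3.79), Cldn2 (3.30) and the fibrinogen gene Fgb (3.29) led. The endoderm transcription factor genes Gata6 (0.29) and Gata4 (0.56) were the lowest and did not reach 2-fold. Parietal endoderm markers had a median of 0.51 over 11 genes, none passed with limma and 3 higher had an unadjusted p under 0.05 (8.01% of kept genes did). Their summed signal was 16498.2 in the normal pool and 22529.7 and 27317.0 in the mutants. Rhox5 is known from endoderm outside the embryo, and the part of yolk sac tissue in its values was not tested.

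Trophoblast markers were divided. Of 15 listed, 10 were measured and 7 were kept, with a median log2 ratio of 0.17 and a summed signal of 3711.2 in the normal pool and 6529.7 and 5803.3 in the mutants. Esx1, an X-linked homeobox gene of the placenta, was the only one that rose with limma (0.728% of kept genes did). It read 159 in the normal pool and 786 and 982 in the mutants (log2 ratio 2.25, SE 0.28, limma adjusted p = 0.0498). That call was narrow, with a limma adjusted p from 0.0233 to 0.188 over the 9 alternatives. It was kept by 5 of these, with the near equal pseudocounts of 15.96 and 16 counted separately. Plac1, also X-linked (371, 1359.2 and 1302.2), and Hand1 (750, 2233.3 and 1710.1) were at least 2-fold higher in both mutants and did not pass. With Esx1, 3 of the 7 kept were at least 2-fold higher in both mutants, against 3.24% of kept genes. An unadjusted p under 0.05 was reached by 3 on the higher side and 0 on the lower, against 8.01% and 4.24% of kept genes. The other kept markers went both ways. Cdx2 read 1252.4 in the normal pool and 1184.4 and 494 in the mutants, Plet1 296, 200 and 240, Krt7 527, 434 and 813, and Eomes 104, 138 and 103. The filter removed 3 markers as dim. Of these, the spongiotrophoblast marker Tpbpa was lower in both mutants (180, 32.8 and 23.3), Elf5 was higher in both (45, 145 and 105) and Ascl2 differed in sign (26.2, 16.8 and 29.5). The part of trophoblast in the values of the 6 genes was not tested. No marker was listed at 0 on any array.

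Germ cell, blood and embryo markers were set beside these. The 7 kept germ cell markers had a median of 0.17, and none passed with limma. An unadjusted p under 0.05 was reached by 0 on the higher side and 1 on the lower (8.01% and 4.24% of kept genes). The summed signal of the germ cell markers was 4158.7 in the normal pool and 4571.5 and 3810.5 in the mutants. The 7 kept erythroid markers had a median of 1.66 (2.02 in mutant pool 1 and 1.38 in mutant pool 2). All 7 were higher in both mutants, against 36.5% of kept genes, and 5 were at least 2-fold higher in both, against 3.24%. All 7 had an unadjusted p under 0.05 (8.01% of kept genes did on the higher side). After adjustment 2 rose (0.728% of kept genes did). They were the embryonic globin gene Hba-x (1.37, limma adjusted p = 0.0269) and the anion exchanger gene Slc4a1 (2.43, limma adjusted p = 0.0498). Over the 9 alternatives the adjusted p ran from 0.0207 to 0.195 for Hba-x and from 0.0214 to 0.19 for Slc4a1. The Slc4a1 call was kept by 4 of them, with the same near equal pseudocounts counted separately. Markers of the embryo proper had a median of -1.10 over 11 genes, with 10 lower in both mutants. None of these passed with limma, and 8 on the lower side and 0 on the higher had an unadjusted p under 0.05 (4.24% and 8.01% of kept genes). Apart from Tbx5 (322, 126 and 75.3), each of these markers read 246 or more on every array. Decidual markers, chosen for maternal tissue, went both ways over 7 genes, with a median of -0.28 and a summed signal of 3154.4 in the normal pool and 1898.6 and 3863.3 in the mutants. Of the 7, 4 were lower in both mutants and 2 were higher in both. Only Prl8a2 passed with limma, on the lower side (0.031% of kept genes did). It read 1375.9 in the normal pool and 91.2 and 111 in the mutants (log2 ratio -3.41, limma adjusted p = 0.0212). Pgr (-0.62) and Hoxa10 (-0.45) were also lower in both mutants and did not pass. Lum (444, 749 and 2529.9) and Wnt4 (0.40) were higher in both mutants and did not pass. The highest medians in the plot of marker lists were 2.73, for the 6 Rhox and cancer-testis genes, and 2.58, for the yolk sac markers. The place of the 6 follows from how they were chosen, and the lists were drawn up with earlier results of these data known. A link between the 6 genes and the yolk sac markers was not tested.

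**Figure D5:**
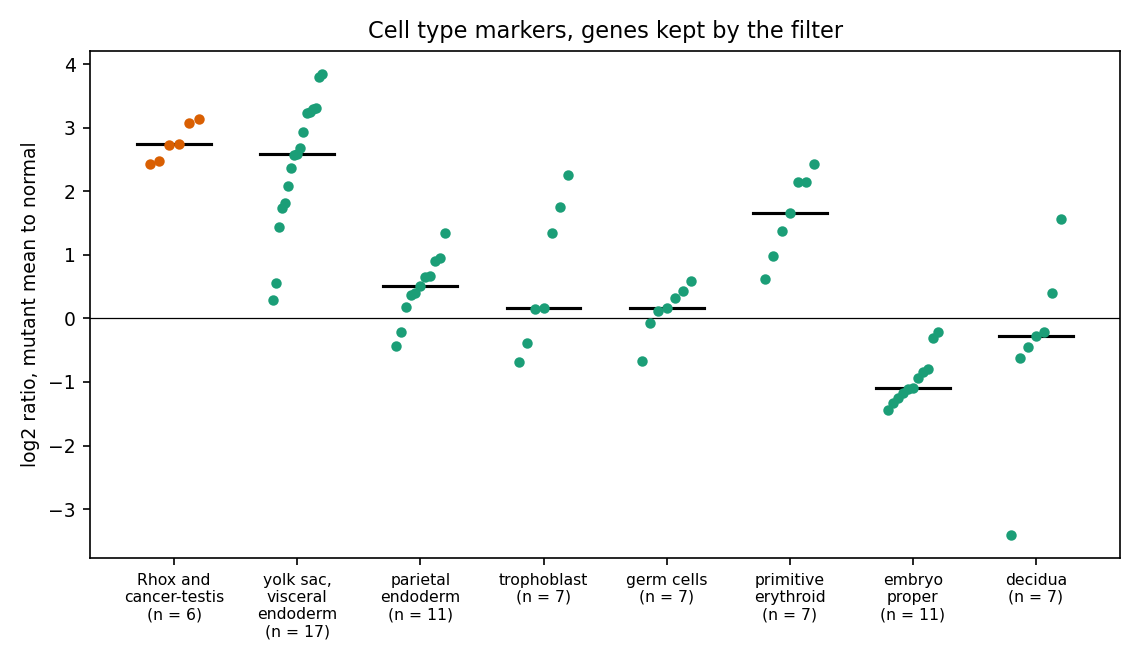
Log2 ratio of the mutant mean to the normal pool for the 6 Rhox and cancer-testis genes (orange) and for the kept markers of 7 cell types or tissues (green), with list medians as bars. The yolk sac markers span the range of the 6 genes, and the trophoblast markers fall into a higher group of Esx1, Plac1 and Hand1 and a group near or below 0.

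Dnmt3l itself read 12.2 in the normal pool, 183 in mutant pool 1 and 14.3 in mutant pool 2, so it was dim in the normal pool and in mutant pool 2, and the filter on the mean log2 signal of the groups removed it. The mutant embryos carried a wildtype paternal allele, so its probe set does not check the labels.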

How the data were processed

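The deposited table holds linear intensity values, made by the authors with GCOS and MAS5 (versions not given), per the submitters' processing notes. From the values, each array had been scaled to a trimmed mean (2% at each end) of 500, which takes total signal to be equal, so more of 1 tissue lowers the values of genes from other tissues. Of 45101 probe sets, 64 controls were left out. A single symbol was given for 34945 of the rest, several for 932 and none for 9160. The deposited table names no genome build; the promoters come from RefSeq (GRCm38.p6).

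The pseudocount of 31.92 is the median over arrays of the 20th percentile of signal. Probe sets at or above the 40th percentile of mean log2 signal were kept. All 3 arrays entered 1 limma fit (version 3.58.1, R 4.3.3) with a variance trend, two-sided, with Benjamini-Hochberg adjustment over 27022 probe sets and calls at 0.05. The fit has 1 residual degree of freedom, from the mutant pair, and the lone normal array is taken to be as variable. The number of arrays limits the precision. The script was tested on simulated data. A list took each gene's brightest kept probe set. Named genes were those that passed, then those with the largest changes, up to 4 a list, with every measured Rhox and type I MAGE gene; Dppa3, Zbtb33, Cul4b, Fmr1, Tab3, Tmem47, Pwwp3b, Rbm41, Gata4, Gata6, Tpbpa, Ascl2, Eomes, Elf5, Cdx2, Krt7 and Wnt4 were named after their values were seen. The 6 genes and the lists were chosen with earlier results of these data known. Alternatives covered the pseudocount, filter, scaling, variance trend, probe set choice and single mutant arrays. The halved pseudocount (15.96) and that of 16 are nearly the same setting, and every count of alternatives holds both.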

Additional observations from a re-analysis of the deposited data

How the results depend on the processing

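All 6 Rhox and cancer-testis genes were higher in the mutants under each of the 8 alternatives tried for them, with log2 ratios from 2.17 (Mageb16) to 3.34 (Rhox6). Their median was 2.65 with a doubled pseudocount and 2.81 with median centring. The array's calls (148 higher, 8 lower) were 0 and 0 without the filter and 0 and 0 without the variance trend, and 263 and 24 with median centring. At an unadjusted p under 0.05, limma gave 2423 higher and 2451 lower without the filter and 1641 and 1814 without the trend. The 5 X-linked calls became 0 without the filter and 0 without the trend, 3 with quantile normalization and 8 with median centring. The 2 calls among neighbours became 0, 0 and 1 (without the filter, without the trend and with quantile normalization). Median centring gave 1 germline call, Tex19.1. The cause of these shifts was not tested.

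Medians of the lists moved as follows. Median centring gave 0.03 for type II MAGE genes, 0.07 for X-linked genes, 0.22 for neighbours, 0.36 for germline genes and -0.12 for repressors. Quantile normalization gave 0.00, 0.04, 0.20 and 0.35 for the first 4 of these, and cyclic loess 0.00, 0.06, 0.25 and 0.38. The 60th percentile filter gave 0.04 for type II MAGE genes, 0.03 for X-linked genes and -0.31 for germline genes, of which it left 3. No filter gave 0.19 for germline genes. Neighbours read 0.16 with a halved pseudocount or one of 16, and 0.17 with a doubled one. The mean of probe sets gave 0.23 for neighbours, 0.25 for germline genes and -0.28 for repressors. Without mutant replicate 1 or 2 there is no test; the medians were 0.11 and 0.04 for type II MAGE genes, 0.06 and -0.01 for X-linked genes, 0.22 and 0.19 for neighbours, -0.12 and -0.19 for repressors, and -0.26 and 0.04 for X-linked cancer-testis genes. No value exists without the normal array. No paired analysis was possible because the normal group has 1 sample. Signals near 31.92 are too dim to compare.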
